A study of Homo sapiens with 6 samples.

Results

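Proteasome subunit and assembly genes were examined in MG63 cells, an established human osteosarcoma line of mesenchymal, bone-forming lineage. They were taken by symbol, PSM with a letter from A to G and a number, without pseudogenes, which gave 48 of 61806 listed genes. The rule used no measured value. Poly(A) RNA was sequenced in 3 libraries of cells with a control hairpin (shNC) and 3 of cells with a stable hairpin against FTO (shFTO), and the comparison asked which transcripts depend on FTO, an RNA demethylase that removes N6-methyladenosine. Both groups are MG63 cells carrying a hairpin and differ, per the labels, in the hairpin only. As limits of the model, the hairpin sequences, their number and whether the cells were cloned are not known from the labels.

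The proteasome degrades proteins that carry ubiquitin chains. Its 20S core is a barrel of alpha subunits, which gate the entrance, and beta subunits, some of which cut the peptide chain. The 19S particle caps the barrel: its ATPases unfold the substrate, and its other subunits bind and remove ubiquitin. Activators such as PSME3 and PSME4 can take the place of the 19S cap, dedicated chaperones assemble the parts, and under interferon PSMB8, PSMB9 and PSMB10 replace the catalytic beta subunits to form the immunoproteasome. When proteasome activity is short, the transcription factor NFE2L1 raises subunit transcription in many cell types.

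The deposited values were FPKM, reads divided by exonic length and library total, and they allowed the whole reads to be recovered. Libraries held 93629 to 106245 reads, which is shallow, and 7057 genes had a read in any library. FTO was listed at 0 in all 6 libraries, controls included. A count of 0 allows up to 3 reads, or 0.237 FPKM over the 6 libraries together at the listed exonic length of FTO, 21379 bases. The knockdown could thus not be checked on FTO. FPKM and such limits rest on the listed length, and whether it is that of the transcripts in these cells was not tested. All 7 mesenchymal and bone markers listed for MG63 had reads (559 in all), while the 3 blood markers were at 0, the 3 endothelial markers had 1 read, and of 4 epithelial markers EPCAM and CDH1 were at 0. KRT18 had 0 reads in shNC and 6 in shFTO, 3 each in replicates 1 and 3, and KRT8 had 1 in each group. Per 100000 reads the epithelial list summed to at most 1.07 in shNC and 3.77 in shFTO, and its part in any result was not tested. On the same scale the mesenchymal and bone markers summed to 76.9 to 97.0 in shNC and 95.1 to 103 in shFTO. In such bulk samples fewer cells of a type and less RNA per cell cannot be told apart. Limits and intervals from reads cover counting error only, unless a fit is named, and values are means ± SD with n = 3 per group.

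Reads were found for 38 of the 48 proteasome genes (79.2%), against 32.9% of 19838 protein-coding genes. At least 10 reads per library on average were reached by 6 of the 48 (12.5%) and by 3.39% of protein-coding genes. Those 6, in order of reads, were PSME3, PSMD14, PSMD11, PSMC1, PSMA5 and PSME4. They held 1769 of the 2099 proteasome reads (84.3%), and PSME3 and PSMD14 alone held 59.3%. Another 32 genes shared 330 reads, 21 of them with 10 reads or fewer.

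The promoters of 4 genes are shown as descriptions, and no level or comparison rests on them. PSME3 and PSMD14 had the most reads, and PSMC1 had the highest estimate for shFTO among the 6 most read genes. PSME4 is 1 of 15 proteasome genes with a promoter that holds the letters TGACNNNGC. Each run covers 250 bases before to 50 bases after the start in RefSeq (GRCh38.p14), 5′ to 3′ on the gene's strand. Capitals mark, on either strand, TGACNNNGC (the core of the element bound by NFE2L1 and NFE2L2), CCGGAAG (a core bound by ETS factors) or CCAAT (the core bound by NF-Y). The positions are chr17:42833147-42833446 (plus strand) for PSME3, chr2:161308175-161308474 (plus) for PSMD14, chr14:90256303-90256602 (plus) for PSMC1 and chr2:53970944-53971243 (minus) for PSME4.
PSME3: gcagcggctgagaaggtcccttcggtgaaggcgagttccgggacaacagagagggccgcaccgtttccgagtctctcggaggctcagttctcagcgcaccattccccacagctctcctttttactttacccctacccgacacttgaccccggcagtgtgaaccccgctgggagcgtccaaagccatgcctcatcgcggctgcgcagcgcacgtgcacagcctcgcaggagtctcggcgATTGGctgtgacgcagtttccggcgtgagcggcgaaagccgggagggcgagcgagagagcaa
PSMD14: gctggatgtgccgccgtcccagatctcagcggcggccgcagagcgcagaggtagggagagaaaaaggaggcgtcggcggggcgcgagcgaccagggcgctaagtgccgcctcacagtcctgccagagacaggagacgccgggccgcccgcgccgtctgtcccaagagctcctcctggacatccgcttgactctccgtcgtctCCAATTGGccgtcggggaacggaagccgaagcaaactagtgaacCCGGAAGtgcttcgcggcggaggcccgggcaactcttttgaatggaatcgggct
PSMC1: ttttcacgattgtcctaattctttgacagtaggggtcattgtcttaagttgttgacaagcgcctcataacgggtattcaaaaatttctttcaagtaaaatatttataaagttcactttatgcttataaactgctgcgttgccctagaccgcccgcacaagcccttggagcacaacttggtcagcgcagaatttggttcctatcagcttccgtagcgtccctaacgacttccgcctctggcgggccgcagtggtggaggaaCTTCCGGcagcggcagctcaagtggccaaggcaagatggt
PSME4: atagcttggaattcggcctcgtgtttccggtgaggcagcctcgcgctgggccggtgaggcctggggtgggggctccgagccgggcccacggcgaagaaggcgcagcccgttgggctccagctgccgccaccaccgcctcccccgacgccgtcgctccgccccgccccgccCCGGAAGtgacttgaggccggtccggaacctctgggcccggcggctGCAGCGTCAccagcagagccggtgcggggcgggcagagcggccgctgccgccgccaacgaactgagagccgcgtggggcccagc

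Among these, PSME3 had CCAAT on the opposite strand, its nearest base 8 bases before the start. In PSMD14 the letters CCAATTGG hold CCAAT on both strands, overlapping, and CCGGAAG lies across the start itself. PSMC1 had CCGGAAG on the opposite strand, beginning 10 bases after the start. Only in PSME4, of the 4, were TGACNNNGC and CCGGAAG both found, and no CCAAT. RefSeq gave 51 promoters for 42 of the 48 genes. TGACNNNGC was in 15 of the 51 (29.4%) and in 13.4% of all 35116 promoters of this length. CCGGAAG was also in 15 of the 51 (29.4%), against 10.3% of all, and CCAAT in 20 (39.2%), against 34.6%. The holders of TGACNNNGC ran from PSME4 with 94 reads to PSMB9, PSMD9, PSME1 and PSMG2 at 0. A match in letters is a description and not a binding site.

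**Figure D1:**
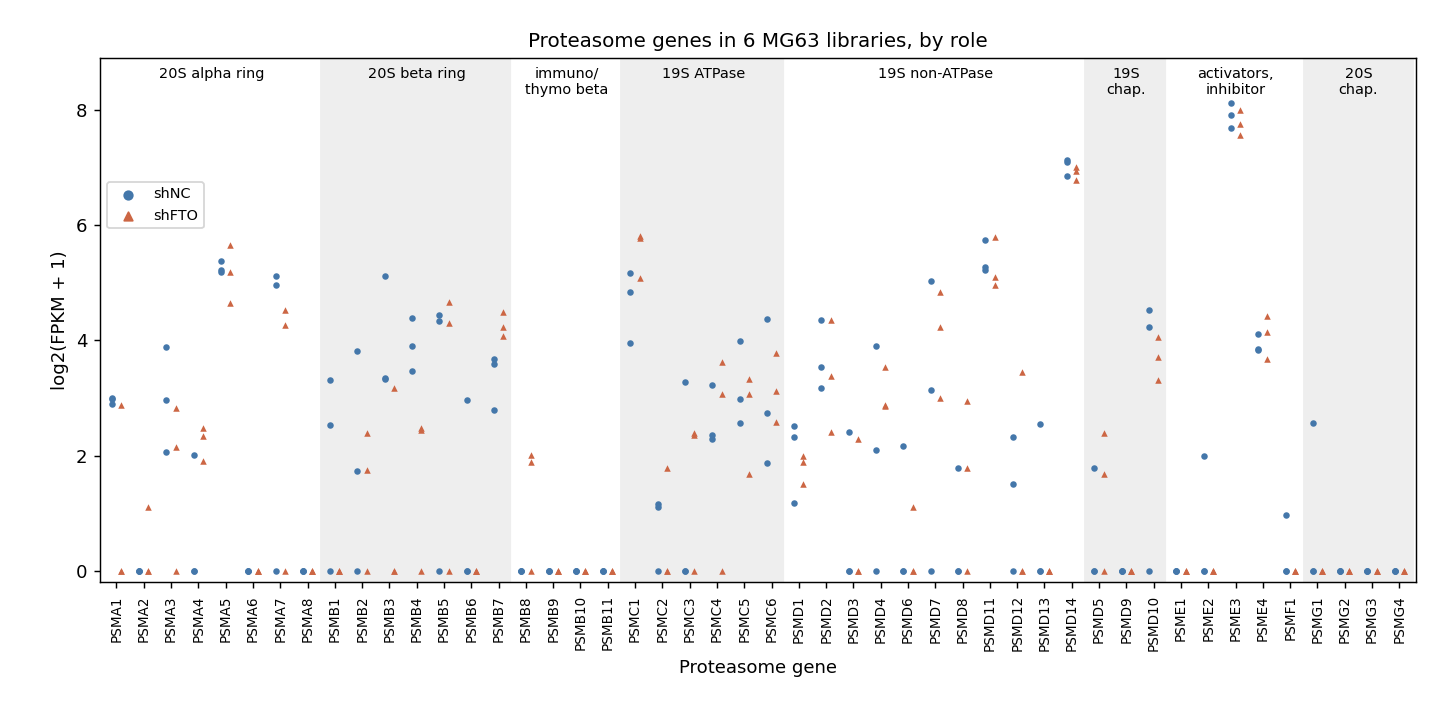
Level of each of the 48 proteasome genes, as log2(FPKM + 1), in 3 shNC libraries (circles) and 3 shFTO libraries (triangles), ordered by role. PSME3 and PSMD14 stand above all others in all 6 libraries, and 10 genes are at 0 throughout.

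PSME3 had the highest FPKM of the 48 genes in this table. It encodes PA28-gamma, a nuclear activator that opens the 20S core to proteins without ubiquitin. Its FPKM was 206, 240.15 and 278 in shNC replicates 1, 2 and 3 and 188, 214 and 255 in the shFTO replicates. The groups overlapped throughout, at 241 ± 36.0 and 219 ± 33.7 FPKM from 359 and 343 reads. In limma on log2(FPKM + 1) the log2 fold change of PSME3 was -0.14 (SE 0.17, adjusted p = 0.772). A quasi-Poisson fit to the recovered reads gave a ratio of shFTO to shNC of 0.909 with a 95% interval from 0.737 to 1.12, so a 2-fold change lay outside that interval. BECN1, which overlaps PSME3 on the opposite strand, had 6 reads against 702. As the strand setting of the counting is not given, this does not show how reads in the overlap were assigned.

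PSMD14 was next in the order. It encodes the metalloprotease that cuts ubiquitin chains from substrates as they enter the 19S particle. FPKM stood at 139, 137 and 115 in the shNC libraries and at 127, 109 and 122 in the shFTO libraries, again with overlap. The means were 130.5 ± 13.1 and 119 ± 9.41 FPKM, and the log2 fold change was -0.13 (SE 0.20, limma adjusted p = 0.859). From 276 and 266 reads the ratio was 0.917, with an interval from 0.725 to 1.16 in the reads fit. PSMD7, the partner with which PSMD14 forms a dimer, had 24 reads and 0 to 31.6 FPKM across libraries, below every value of PSMD14.

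The order of FPKM could be set only at the top. It is the order within this shallow table, in which PSMA6, PSMA2 and PSMB6, subunits of the constitutive core, had 0, 1 and 1 reads. Whether the table holds all reads of each library is not known from the labels, so the order may not be that of expression in the cells. Over the 6 libraries PSME3 had 230.2 ± 33.4 FPKM (SD, n = 6), 1.84 times PSMD14 at 125 ± 11.9, and its lowest library lay above the highest of PSMD14. The lowest PSMD14 value, 109 FPKM, in turn lay above the highest of the next gene, PSMD11, at 54.6. From there on every neighbour among the 20 highest genes overlapped the next: PSMD11 at 40.7 ± 10.3, PSMA5 at 36.8 ± 8.19, PSMC1 at 36.5 ± 15.6 and PSMA7 at 17.4 ± 14.6 FPKM. By mean FPKM, PSME3 ranked 146 and PSMD14 218 among all 61806 genes. Exonic length, by which FPKM divides, had a Spearman correlation of -0.04 with mean FPKM across the 48 genes, which share the 6 libraries. The order still depends on the listed lengths, which may differ from those of the transcripts in these cells.

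**Figure D2:**
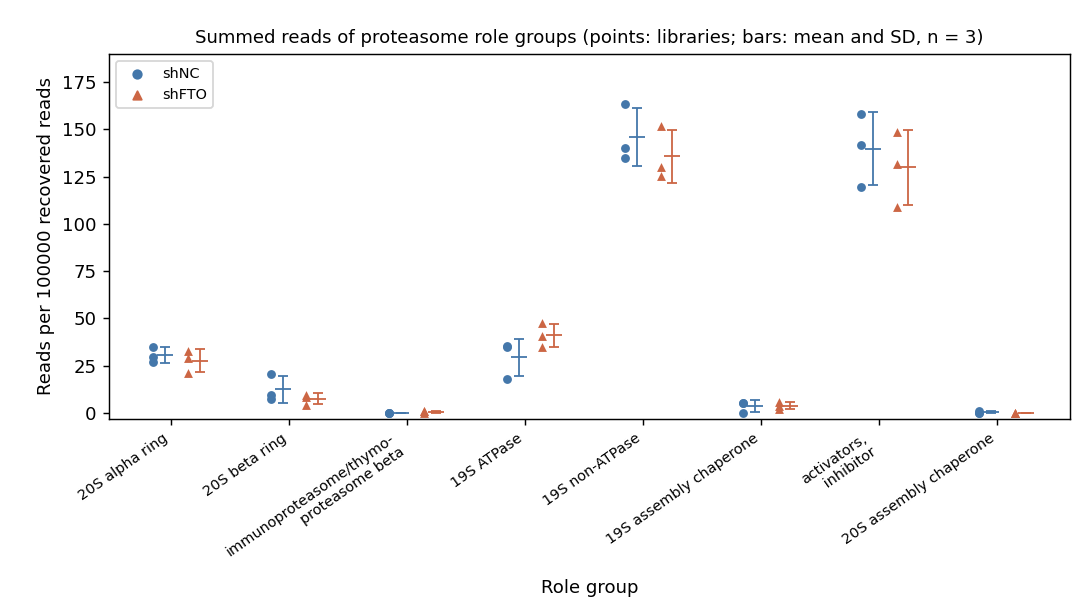
Summed reads of each role group per 100000 recovered reads, with points for libraries and bars for mean and SD (n = 3). The non-ATPase group and the activators, which hold PSMD14 and PSME3, lie above 100 in every library, and the other groups stay under 50.

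All 48 genes together made up 368, 345 and 374 of 100000 reads in the shNC libraries and 328, 321 and 390.5 in the shFTO libraries. The means were 362 ± 15.4 and 346 ± 38.4, a ratio of 0.957 with overlap, and no test was made of such sums. Without PSME3 the ratio was 0.981, and without PSME3 and PSMD14 it was 1.03. The 19S particle summed to 175 ± 22.9 in shNC and 177 ± 20.1 in shFTO, and the 20S core to 43.1 ± 8.26 and 35.2 ± 8.50. Median FPKM per gene, a level by length, was 3.43 in the alpha ring, 8.83 in the constitutive beta ring, 6.73 among the ATPases and 2.92 among the non-ATPase subunits. These medians rest on few reads. That of the beta ring was PSMB4, with 11 reads, each worth 4.43 to 5.03 FPKM. The alpha ring includes the germline gene PSMA8, at 0.

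In the fit over all genes 34 of the 48 proteasome genes could be tested, and 0 were called, at a Benjamini-Hochberg adjusted p under 0.05 in limma. Of all 4932 genes tested 0.0406% were called, 2 in number. The quasi-Poisson fit called 0 of 8 proteasome genes and 0% of 1021 genes. Unadjusted p values under 0.05 were given to 3 of the 34, where 3.85% of all tested genes had such a p. PSMC1 was the 1 higher in shFTO (background 1.91%), and PSMB3 and PSMB4 were the 2 lower (background 1.95%). In the quasi-Poisson fit 1 of 8 did (PSMC1), against 4.9% of genes. The estimate lay above 0 for 13 of the 34 and below 0 for 21, with a median log2 fold change of -0.13, against 0.00 over all tested genes. Without shFTO replicate 1 the counts were 18 and 17 with a median of 0.017, and without shNC replicate 3 they were 16 and 17 with a median of -0.031, so this lean rests on single libraries. The sign of an estimate, a difference of mean log2 values, also need not be that of the mean FPKM. PSMC6, PSMD10 and PSMC3 counted as above 0 though their mean FPKM was lower in shFTO. PSMC4 and PSMD12 counted as below 0 though theirs was higher. Since 8 of the 34 passed the filter of 1 FPKM through a single group, these counts are descriptions only. The other 14 genes were not tested: 10 were at 0, and PSMC2, PSMA2, PSME2 and PSMF1 had 1 to 4 reads.

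Groups did not overlap for 4 of the 34. PSMA1, PSMB3 and PSMB4 were lower in all shFTO libraries, a separation that 3.69% of all tested genes had, and PSMB7 was higher, as were 2.9% of genes. Each of the 4 rests on 7 to 15 reads over the 6 libraries. PSMA1 had 2 reads in shFTO replicate 3 as in each shNC library, and PSMB3 had 1 read in shFTO replicate 1 as in shNC replicates 1 and 3, so their FPKM parted there only through the library totals.

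**Figure D3:**
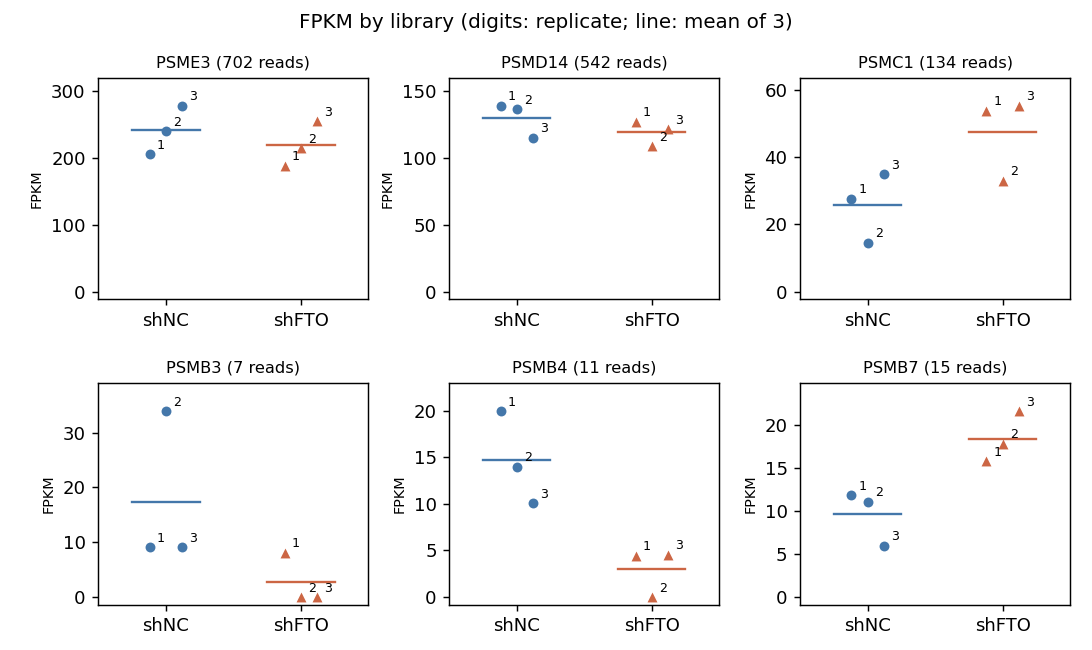
FPKM by library for PSME3, PSMD14, PSMC1, PSMB3, PSMB4 and PSMB7, each panel on its own axis from 0, with digits for replicates and lines for means. The groups overlap for PSME3, PSMD14 and PSMC1, and do not for the other panels, which rest on 7, 11 and 15 reads.

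Of the 19S ATPases, PSMC1 had the most reads. It encodes a subunit of the ATPase ring whose tail helps open the gate of the core. PSMC1 stood at 27.7, 14.5 and 34.85 FPKM in shNC replicates 1, 2 and 3 and at 53.75, 33.0 and 55.2 in shFTO replicates 1, 2 and 3. The shFTO libraries were the higher ones apart from replicate 2, which lay below shNC replicate 3. Means were 25.7 ± 10.3 and 47.3 ± 12.4 FPKM, from 45 and 89 reads. The log2 fold change of PSMC1 was 0.90 (SE 0.37, limma adjusted p = 0.772), so it was not called. Its ratio in the reads fit was 1.88 with an interval from 1.16 to 3.05 and an adjusted p of 0.938 in that quasi-Poisson fit. Leaving out shNC replicate 2 took the log2 fold change to 0.55, and leaving out shNC replicate 3 to 1.16.

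Reads of PSMC1 are uncertain because of a near-identical copy. PSMC1P1, a processed pseudogene on chromosome 3 (68635705 to 68637024), matches a PSMC1 transcript at 99.9% of 1320 bases. It had 9 reads in shNC and 9 in shFTO, and with them PSMC1 would have 54 and 98. Whether reads that match both were assigned or dropped is not known, so these sums do not bound the uncertainty. Of 42 listed pseudogenes of proteasome genes 3 had reads, 20 in all, and the other 2 of these had 1 read each.

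The ATPases without PSMC1 had 39 reads in shNC and 36 in shFTO, so the group's ratio of 1.40 turned to 0.881. PSMC6 had 19.8, 2.65 and 5.71 FPKM in the shNC libraries and 5.03, 12.8 and 7.75 in the shFTO libraries, with the highest value in shNC replicate 1. PSMC5 stood at 4.95, 6.94 and 14.98 FPKM against 2.2, 7.45 and 9.04. Both overlapped between groups, and the ring partners PSMC2, PSMC3 and PSMC4 had 4, 4 and 9 reads.

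The non-ATPase subunits form the base and the lid of the 19S particle. PSMD11, a scaffold of the lid, had 52.4, 37.75 and 36.2 FPKM in shNC and 33.2, 30.01 and 54.6 in shFTO. Its groups overlapped, and the ratio in the reads fit was 0.940 (95% interval 0.627 to 1.41). PSMD2, a docking subunit for ubiquitin shuttle proteins, stood at 10.7, 7.99 and 19.4 FPKM against 9.49, 4.29 and 19.5. Replicate 3 was the highest for PSMD2 in both groups.

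PSMD1, the other large scaffold of the base, had 4.03, 1.25 and 4.73 FPKM in shNC and 2.98, 2.69 and 1.84 in shFTO. PSMD7 had 7.85, 0 and 31.6 FPKM against 6.97, 27.55 and 17.9, so both groups spread widely. The rest of the lid and base was sparse. PSMD4, the ubiquitin receptor, had 12 reads, PSMD12 had 8, PSMD8 had 5, PSMD3 and PSMD6 had 4 each, and PSMD13 had 2, both in shNC replicate 1.

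In the alpha ring PSMA5 held 126 of 173 reads. It had 40.7, 36.3 and 35.4 FPKM in shNC and 49.2, 24.1 and 35.4 in shFTO, with both the highest and the lowest value in shFTO. PSMA5 had a ratio of 0.982 in the reads fit (95% interval 0.613 to 1.57). PSMA7 had 30.25, 33.9 and 0 FPKM against 0, 18.2 and 22.1, where 1 read is worth 5.37 to 6.10 FPKM. PSMA1 had 6.95, 6.49 and 7.0 FPKM in shNC, 2 reads in each library, and was at 0 in shFTO replicates 1 and 2 and at 6.34 in replicate 3. With 6 reads against 2, its ratio was 0.317 with a counting interval from 0.0313 to 1.77. PSMA3 and PSMA4 had 10 reads each and PSMA2 had 1, while PSMA6 and the germline subunit gene PSMA8 were at 0.

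The 7 genes of the constitutive beta ring had 37 reads in the control libraries and 23 with the FTO hairpin. Per 100000 reads that was 12.6 ± 7.17 and 7.46 ± 2.84, with overlap. Its ratio of 0.592 became 0.877 without shNC replicate 2, which alone stood at 20.8. PSMB3, a structural subunit gene, had 9.07, 33.9 and 9.14 FPKM in shNC and 8.06, 0 and 0 in shFTO. The reads were 6 against 1, 4 of the 6 in shNC replicate 2, and the ratio was 0.159 with a counting interval from 0.00345 to 1.31. Its log2 fold change was -2.87 (SE 0.90, limma adjusted p = 0.624), a fitted value that depends on the pseudocount, with -5.04 at a pseudocount of 0.1. With 1 library left out it ran from -3.93 to -2.28.

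PSMB4, another structural subunit gene, had 19.95, 13.98 and 10.05 FPKM in shNC and 4.43, 0 and 4.55 in shFTO. With 9 reads against 2 the ratio was 0.211 and its counting interval ran from 0.0222 to 1.02. The log2 fold change of PSMB4 was -2.28 (SE 0.77, limma adjusted p = 0.751). It was -1.46 without shFTO replicate 2 and -3.47 at a pseudocount of 0.1. PSMB1 had 3 reads, all in shNC replicates 1 and 2, and PSMB2 had 7 and 3 reads.

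The subunits that cut had few reads as well. PSMB5, which gives the chymotrypsin-like activity, had 0, 19.2 and 20.7 FPKM in shNC and 24.3, 0 and 18.7 in shFTO, from 6 and 7 reads. PSMB7, with the trypsin-like activity, had 11.9, 11.1 and 5.97 FPKM against 15.8, 17.8 and 21.6. These were 5 reads against 10, a ratio of 1.90 with a counting interval from 0.592 to 7.09, and the log2 fold change of PSMB7 was 0.91 (SE 0.51, limma adjusted p = 0.772). PSMB6, with the caspase-like activity, had 1 read, in shNC replicate 2, worth 6.84 FPKM.

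The inducible counterparts were at or near 0. PSMB8, which replaces PSMB5, had 1 read in shFTO replicate 1 and 1 in replicate 2, worth 2.70 and 3.05 FPKM. PSMB9 and PSMB10, which replace PSMB6 and PSMB7, and the thymic PSMB11 were at 0 in all 6 libraries. A count of 0 allows up to 1.52 FPKM for PSMB9, 3.11 for PSMB10 and 2.74 for PSMB11 over the 6 libraries together. The constitutive trio thus had 29 reads, of which PSMB5 had 13, PSMB7 had 15 and PSMB6 had 1, and the inducible trio had 2. So constitutive PSMB6 had fewer reads than inducible PSMB8, and PSMA6 of the constitutive core was at 0 as well. Counts this low do not show that the inducible genes were silent in the cells.

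Of the other activators, PSME4, which encodes PA200 and binds the core in the nucleus, had 13.3, 16.2 and 13.4 FPKM in shNC and 11.8, 20.5 and 16.7 in shFTO. The spread was wider in shFTO, on both sides of the shNC values, and the ratio was 1.13 (95% interval 0.656 to 1.94, reads fit). PSME1 and PSME2, which form the interferon-inducible activator PA28-alpha-beta, had 0 and 1 reads, and PSMF1, an inhibitor of the core in vitro, had 1. Levels of PSME1 up to 2.85 FPKM were allowed by its count of 0. So of the 5 genes in this group PSME3 and PSME4 held all but 2 of 798 reads.

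The assembly chaperones had few reads. Among those of the 19S base, PSMD10, also known as gankyrin, had 22.2, 0 and 17.9 FPKM in shNC and 15.75, 8.89 and 12.1 in shFTO, or 9 reads in each group. PSMD5 had 4 reads and PSMD9 none. Of the 4 chaperones of the 20S core PSMG1 had 1 read, and PSMG2, PSMG3 and PSMG4 were at 0, with limits of 0.405, 2.57 and 0.486 FPKM. These limits differ only through the listed exonic lengths of 12490, 1973 and 10415 bases.

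**Figure D4:**
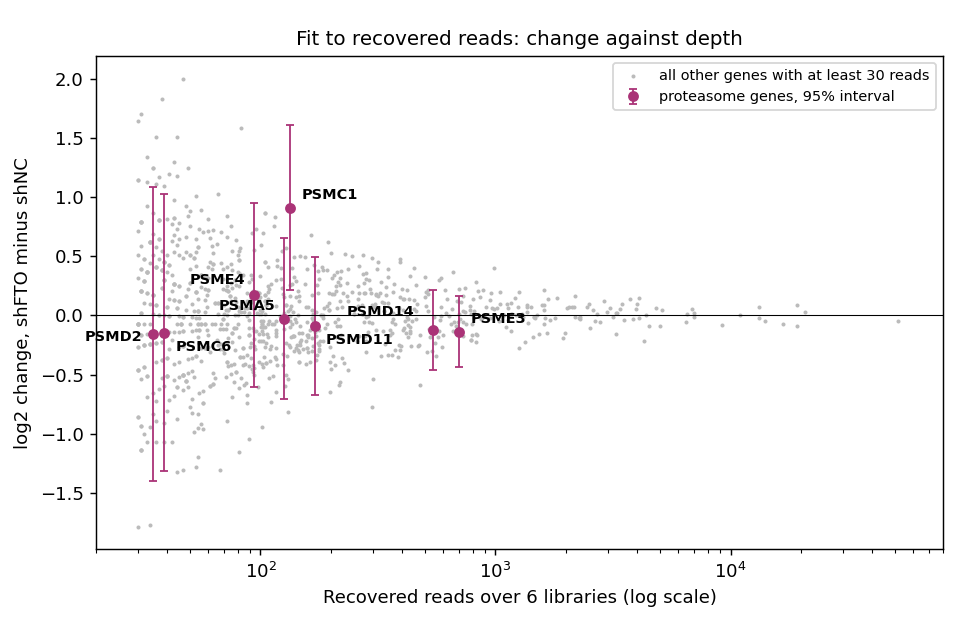
Change between groups (log2, shFTO minus shNC) against recovered reads on a log axis, for 1021 genes with at least 30 reads in the quasi-Poisson fit. Purple points are 8 proteasome genes with 95% intervals: all but PSMC1 include 0, and those of PSMC1, PSMC6 and PSMD2 reach past 1 or -1.

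Depth set how small a change could be seen. Of the 8 proteasome genes in the reads fit the 95% interval excluded a 2-fold change in either direction for 5: PSME3, PSMD14, PSMD11, PSMA5 and PSME4. For PSMC6 and PSMD2, at 39 and 35 reads, the intervals of the ratio ran from 0.401 to 2.04 and from 0.379 to 2.13. For the genes with fewer reads a difference was not detectable at this depth, which does not show that levels were alike.

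Outside the PSM genes, 36 further genes of the ubiquitin and proteasome pathway were examined. Reads were found for 31, and 0 of 25 tested were called in limma in either direction, where 0.0406% of all 4932 tested genes were called. The median log2 fold change of the 25 was 0.06. ZFAND5, which encodes a proteasome-stimulating ubiquitin-binding protein, held 68.7% of the 2945 reads of the 36 genes. It had 479, 468 and 470.2 FPKM in shNC and 481, 505 and 494 in shFTO. The lowest shFTO value lay above the highest of shNC, by a small margin, and the log2 fold change of ZFAND5 was 0.06 (SE 0.11, limma adjusted p = 0.882).

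FAF1, a cofactor of the segregase VCP, had 85.7, 78.7 and 84.9 FPKM in shNC and 82.3, 80.3 and 80.7 in shFTO. FAF2, a related cofactor at the endoplasmic reticulum, stood at 42.9, 28.4 and 48.7 FPKM against 55.6, 35.9 and 50.6. Groups overlapped for both. SQSTM1, the autophagy receptor p62, had 18.3, 14.5 and 15.6 FPKM in shNC and 6.25, 14.1 and 8.98 in shFTO, without overlap. The margin was small, as shNC replicate 2 had 11 reads of SQSTM1 and shFTO replicate 2 had 10. For SQSTM1 the log2 fold change was -0.73 (SE 0.53, limma adjusted p = 0.772).

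The smallest p values of the pathway list were those of AKIRIN2 and BAG6. AKIRIN2, which brings proteasomes into the nucleus, had 33.2, 17.7 and 28.7 FPKM in shNC and 12.6, 9.51 and 4.32 in shFTO, from 17 and 6 reads. Every shFTO library was below every shNC library, and the log2 fold change of AKIRIN2 was -1.55 (SE 0.51, limma adjusted p = 0.653). BAG6, a chaperone for misplaced membrane proteins, had 5.03, 3.13 and 3.38 FPKM against 5.95, 21.85 and 10.7, from 7 and 24 reads. BAG6 was higher in all shFTO libraries (log2 fold change 1.36, SE 0.70, limma adjusted p = 0.772). Of the 25 tested, AKIRIN2 and SQSTM1 were lower without overlap, a separation that 3.69% of all tested genes had. ZFAND5 and BAG6 were higher without overlap, as were 2.9% of genes, so 2 of the 25 went each way. AKIRIN2 and BAG6 rest on 23 and 31 reads. With so few genes these counts are descriptions only.

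NFE2L1, the transcription factor of the subunit genes, had 8 reads in shNC, all in replicate 3, and 17 in shFTO. The ratio was 2.02 with a counting interval from 0.827 to 5.41. NFE2L1 was not called (log2 fold change 1.91, SE 0.99, limma adjusted p = 0.772). The core maturation factor POMP and the small 19S subunit SEM1 were at 0 in all libraries. These genes were named for their roles, after their values were seen.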

How the data were processed

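RNA of 6 MG63 libraries (3 shNC, 3 shFTO) was extracted with TRIzol and enriched for poly(A), per the labels. The submitters' processing notes name StringTie 1.3.3b, HTSeq 0.6.1, HISAT2 2.2.1, DESeq2 1.50.2 and FastQC 0.10.1, and the build GRCh38. Not given in the sources used here are their order, the annotation and the strand setting of the counting. The authors deposited values in FPKM to 2 decimals, beside each gene's symbol, position and length of exons, per the file headers. FPKM divides by the library total, so abundant genes lower all others.

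Whole reads were recovered by searching totals between 20000 and 200000 for which FPKM times length is whole, and in each library 100% of the nonzero values came out whole to within 0.05 read. No library repeated another within counting noise: the chi-square per degree of freedom was 1.73 to 1.97 within groups and 1.73 to 2.03 between them. Each was counted as a replicate because the labels call it a biological replicate.

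The test was limma 3.58.1 (R 4.3.3, trend and robust) on log2(FPKM + 1), tested on both sides, with genes kept where either group averaged 1 FPKM or more, and with Benjamini-Hochberg adjustment over all of them. On the log2(FPKM + 1) scale changes of low genes can be understated. Where some libraries are at 0, or single reads are worth many FPKM, changes can also be overstated or reversed. PSMD10, with 9 reads in each group, averaged 13.35 FPKM in shNC and 12.3 in shFTO, yet its log2 fold change was 0.77. A quasi-Poisson fit with moderated dispersion used genes with at least 30 recovered reads. Exact conditional 95% intervals of read ratios came from SciPy 1.17.1 (Python 3.11.15). On simulated data with known changes both fits missed most changed genes, and limma also called some unchanged genes. The changed genes were drawn from genes with reads, below as well as above the filters of the fits. The dispersion was fixed, at a value below the chi-square per degree of freedom within groups, so the simulated data were less noisy. The share missed is thus partly set by that draw and need not hold for these data. Protein-coding genes and transcripts came from GENCODE on GRCh38, in which 94.3% of gene IDs were found, and the pseudogene was aligned with BLASTN 2.17.0. Values by library were given for genes with at least 10 reads per library or the 12 most read with ties, the 3 smallest p values and the catalytic subunits. In the pathway list they were given for the 4 most read genes and the 2 with the smallest p values. PSMA1 was added after its values were seen. The members and lists were chosen with earlier results of these data known.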

Additional observations from a re-analysis of the deposited data

How the results depend on the processing

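Under all 12 alternatives 0 proteasome genes and 0 pathway genes were called, with smallest adjusted p values of 0.111 and 0.261, both in the fit with a replicate block. Over all genes limma called 2. That count was 7 with a pseudocount of 0.1, 9 without a filter, 0 with at least 10 reads per library, 0 in the quasi-Poisson fit and 2 with median-of-ratios scaling. It ran from 2 to 9 with 1 library left out. With the replicate block it was 17. Between same-numbered libraries the correlations of deviations from group means were -0.003, 0.039 and -0.012 over 705 genes. Between differently numbered libraries they ran from -0.028 to 0.029. Counting noise is large at this depth, so these values cannot settle whether the libraries were paired. Not every library correlated best with its own number.

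Of 271 log2 fold changes of 25 named genes under alternatives, 252 kept direction and 19, from 11 genes, turned direction. No named gene was called in the main fit or under any alternative, so these counts describe direction only. PSMC6 was at -0.15 in the quasi-Poisson fit. With 1 library left out the ranges that crossed 0 were -0.38 to 0.036 for PSMD11, -0.34 to 0.16 for PSMA5, -0.016 to 0.36 for PSME4, -0.39 to 0.86 for PSMC6 and -0.79 to 0.19 for PSMD2. They were -0.63 to 0.044 for PSMD1, -0.064 to 2.45 for PSMD7, -0.81 to 0.017 for PSMC5, -2.12 to 1.03 for PSMA7, -0.69 to 1.58 for PSMD10 and -1.40 to 1.56 for PSMB5. PSMC1 stayed between 0.55 and 1.16 and PSME3 between -0.25 and -0.03. The ratio of all proteasome reads ran from 0.896 to 0.992, and that of PSME3 to PSMD14 from 1.74 to 1.93. Depth limits these results, as 42 of the 48 genes had fewer than 10 reads per library on average.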

Other observations

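Among 201 genes with 100 to 200 reads over the 6 libraries, PSMC1 had the highest estimate for shFTO in the quasi-Poisson fit, a log2 change of 0.91, where the median absolute log2 change was 0.22. The band of reads was chosen after the value of PSMC1 was seen, and the gene was not called over all genes (adjusted p = 0.938 in that fit).

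Median GC content was 62.0% in the proteasome promoters and 58.7% in all promoters of the table. It was 63.7% in the promoter of PSME3, 66.0% in that of PSMD14, 48.3% in that of PSMC1 and 75.3% in that of PSME4.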
